A study of Homo sapiens with 4 samples.

Results

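Genes that build the kinetochore, organise the mitotic spindle and divide the cell form a set of 49, chosen by name from a list and found in full among the 31319 genes with expression values. The list was drawn up by function, with earlier results of these data known. It leaves out the mitotic kinases and the kinesin family apart from the kinetochore motor CENPE. Expression was measured by RNA sequencing of T24 and UM-UC-3, both human bladder cancer cell lines. Each line was grown for 48 h with 140 µM OICR-9429 or with DMSO, the solvent control. OICR-9429 is a small molecule that occupies the pocket of WDR5 to which the histone methyltransferase MLL1 binds. The number of libraries was 4, with 1 per line and condition, so a comparison within a line has no replicate and carries no test. In the tables, the treated values stand under headings with the number 125 where the labels give 140 µM, and the meaning of that number was not given. Values are FPKM, the fragments assigned to a gene scaled to its length and to the library total.

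The kinetochore is the protein structure that ties a chromosome to spindle microtubules. Its inner layer sits on nucleosomes that hold the histone variant CENP-A, and its outer layer grips the microtubule ends and carries the spindle checkpoint, which holds back anaphase until every chromosome is attached. Astral, kinetochore and midzone microtubules are arranged by spindle proteins, and cytokinesis proteins then close the contractile ring and cut the midbody. Many of these genes are transcribed mainly in late S, G2 and M phase. Many of their promoters carry a CCAAT box, the binding site of NF-Y, and a cell cycle genes homology region (CHR), which recruits MuvB complexes. RNA of whole cultures was measured, so fewer dividing cells and less RNA per dividing cell cannot be told apart in any value given here.

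Promoter sequences are shown so that members with the deepest fall can be read beside members that changed least. The 4 members with the deepest mean fall over the lines and the 4 with the smallest change were taken, among those matched to a RefSeq promoter. Each sequence runs 5′ to 3′ on the gene's strand in GRCh38.p14, covering 150 bases before the start and 30 bases of the transcribed sequence. Capitals mark CCAAT and the CHR-like letters TTTGAA or TTTAAA, read on either strand, so that ATTGG and TTCAAA count too. The members with the deepest fall were SPC25 (chr2:168890401-168890580 on the minus strand), ZWINT (chr10:56361230-56361409 on the minus strand), DLGAP5 (chr14:55191556-55191735 on the minus strand) and BUB1B (chr15:40160919-40161098 on the plus strand).
SPC25: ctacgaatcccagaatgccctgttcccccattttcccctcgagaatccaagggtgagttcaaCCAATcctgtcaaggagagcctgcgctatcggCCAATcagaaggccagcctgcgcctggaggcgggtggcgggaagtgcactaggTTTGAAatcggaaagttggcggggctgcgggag
ZWINT: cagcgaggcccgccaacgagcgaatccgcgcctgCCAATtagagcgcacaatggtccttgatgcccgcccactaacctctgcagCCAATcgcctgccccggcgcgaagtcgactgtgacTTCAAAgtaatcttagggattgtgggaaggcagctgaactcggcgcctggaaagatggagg
DLGAP5: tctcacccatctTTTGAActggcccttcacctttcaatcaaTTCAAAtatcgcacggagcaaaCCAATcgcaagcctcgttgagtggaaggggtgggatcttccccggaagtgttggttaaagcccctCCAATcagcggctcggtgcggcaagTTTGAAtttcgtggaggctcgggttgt
BUB1B: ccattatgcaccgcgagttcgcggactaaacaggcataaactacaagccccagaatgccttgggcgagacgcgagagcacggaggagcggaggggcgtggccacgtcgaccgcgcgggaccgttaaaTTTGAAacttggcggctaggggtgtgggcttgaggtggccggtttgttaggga
The members with the smallest change were MAD1L1 (chr7:2232916-2233095 on the minus strand), MIS12 (chr17:5486224-5486403 on the plus strand), PMF1 (chr1:156212857-156213036 on the plus strand) and CENPP (chr9:92325318-92325497 on the plus strand).
MAD1L1: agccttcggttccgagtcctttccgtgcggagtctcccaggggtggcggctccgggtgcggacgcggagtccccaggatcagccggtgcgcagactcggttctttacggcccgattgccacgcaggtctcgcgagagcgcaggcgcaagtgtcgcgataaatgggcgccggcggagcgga
MIS12: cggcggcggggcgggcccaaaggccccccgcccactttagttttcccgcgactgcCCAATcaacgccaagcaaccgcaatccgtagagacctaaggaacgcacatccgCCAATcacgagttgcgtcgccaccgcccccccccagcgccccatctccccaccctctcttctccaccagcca
PMF1: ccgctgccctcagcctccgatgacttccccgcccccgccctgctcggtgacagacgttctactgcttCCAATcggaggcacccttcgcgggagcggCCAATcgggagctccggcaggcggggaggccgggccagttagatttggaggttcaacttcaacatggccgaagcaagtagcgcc
CENPP: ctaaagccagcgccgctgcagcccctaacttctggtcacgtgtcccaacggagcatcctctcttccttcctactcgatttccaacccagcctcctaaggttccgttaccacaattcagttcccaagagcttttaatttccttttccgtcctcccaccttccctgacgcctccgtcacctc
TTTGAA is present, on one strand or the other, in each of the first 4 sequences and in none of the last 4, while a CCAAT box is present in SPC25, ZWINT and DLGAP5 and also in MIS12 and PMF1. In SPC25 the TTTGAA match begins at base -3, counting the first base of the gene as 0. The match of BUB1B begins at base -23, that of ZWINT at base -31 on the opposite strand and the one nearest the start of DLGAP5 at base 3. These genes were picked by their change, so the contrast is a description of 8 promoters and nothing more.

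Over the wider window of 250 bases before to 50 after the start, 43 of the 49 members could be matched. CCAAT was found in 29 of them (67.4%), against 39.7% of the 27305 genes with a window. TTTGAA was found in 24 members (55.8%), against 18.2% of all genes. TTTAAA, which reads the same on both strands, was in 6 members (14.0%), against 14.5% of all genes. Either CHR-like word was in 26 members (60.5%, against 27.9% of all genes) and both a CCAAT box and a CHR-like word in 17 (39.5%, against 11.2%). The E2F-like words TTTCGCGC and TTTGGCGC were in 3 members (6.98%, against 1.40%). Of the 34 matched members that fell in the test over both lines described below, 24 held a CHR-like word. Among the 9 matched members that did not pass it, CENPN and CKAP5 held one. Of these 9, CENPN, CKAP5, SKA2 and DSN1 passed under other settings given below. CCAAT was in 23 of the 34 and in 6 of the 9. Neither split was tested. Position differed from other genes as well. Of the 41 CHR-like matches in members, 34.1% began in the 50 bases before the start and 29.3% in the 50 bases from it, against 15.9% and 10.4% of all matches in the genes with a window. CCAAT matches were most frequent between 100 and 51 bases before the start, with 41.5% of the matches in members and 28.9% of those in all genes. A match of letters is a description and shows no binding.

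**Figure D1:**
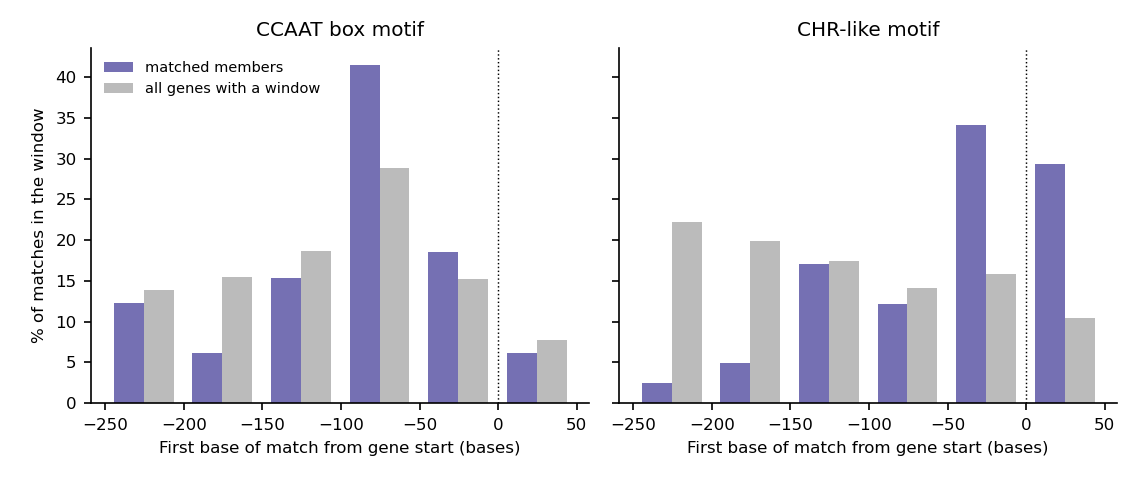
Share (%) of all matches of CCAAT (left) and of TTTGAA or TTTAAA (right) that begin in each 50-base stretch from 250 bases before to 50 after the gene start, for the matched members (purple) and for all genes with a promoter window (grey), 1 window per gene. CHR-like matches of members lie nearest the start, with 34.1% in the last 50 bases before it.

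With OICR-9429, 43 of the 49 members were lower in both lines and none was higher in either. Within a line, a call needed a change of 2-fold or more after 0.5 was added to each FPKM, and 1 FPKM or more in either library. That rule called 45 members lower in T24, where it called 13.5% of the 12638 genes that reached the minimum lower and 6.93% higher. It called 45 members lower in UM-UC-3, where it called 12.1% of 13086 genes lower and 14.0% higher. Of the 11178 genes at the minimum in both lines, 6.32% were lower in each and 2.67% higher in each. The members' FPKM summed to 188 with OICR-9429 and 1483 with DMSO in T24. In UM-UC-3 the sums were 196 with OICR-9429 and 1344 with DMSO. In T24 the members' median log2 fold change was -3.17, beside -0.15 over all genes at the minimum. In UM-UC-3 it was -3.08, beside 0.09.

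Low levels with OICR-9429 were shared by nearly the whole set. In T24, 5 members had an FPKM of at least 10 with OICR-9429 and 42 with DMSO. The same level was reached in UM-UC-3 by 6 members with OICR-9429 and 36 with DMSO. Members under an FPKM of 1 numbered 7 in treated T24 cells and 14 in treated UM-UC-3 cells, and 0 in either DMSO library. When all genes at the minimum were ranked by their change, 20 members stood among the 100 lowest log2 fold changes of T24 and 22 among the 100 lowest of UM-UC-3. The 500 lowest held 39 members in T24 and 35 members in UM-UC-3.

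**Figure D2:**
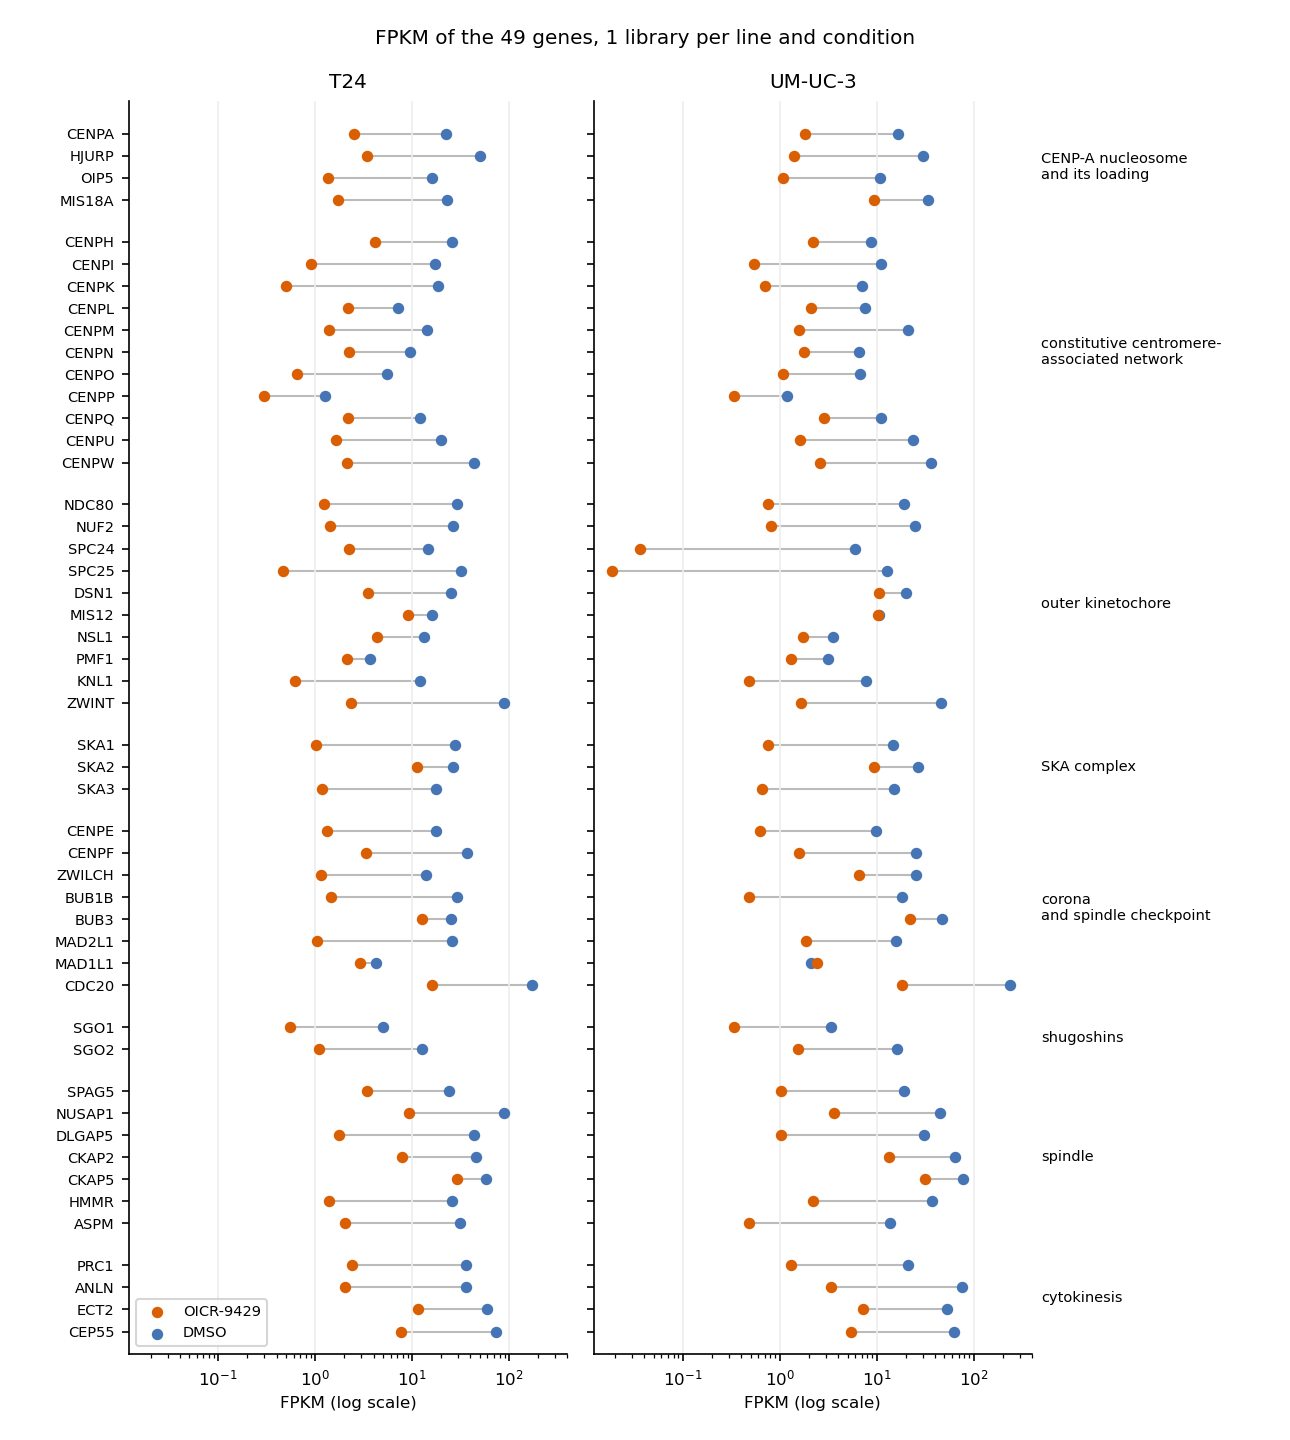
FPKM (log axis) of each of the 49 genes with OICR-9429 (orange) and with DMSO (blue) in T24 (left) and UM-UC-3 (right), grouped by role, 1 library per point and so without error bars. Orange points lie left of blue ones for all 49 genes in T24 and for all but MAD1L1 in UM-UC-3.

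A change shared by the lines was tested with limma, fitted across genes with cell line and treatment as terms. It had 1 residual degree of freedom per gene, the lines being the only repetition of the treatment. In that fit, 38 members fell and none rose at a Benjamini-Hochberg adjusted p under 0.05, beside 3.11% of the 12584 genes fitted that fell and 0.811% that rose. Their limma log2 fold changes lay between -4.89 and -2.02, with standard errors of 0.23 to 0.47 and adjusted p of 0.0053 to 0.035. The other 11 members had limma adjusted p of 0.051 to 0.84. An unadjusted limma p under 0.05 was reached by 46 of the 49 members and by 2840 of the 12584 genes fitted. The number that fell was 0 when no FPKM minimum was set and 0 when the cell line term was left out, with 45 and 43 members at an unadjusted p under 0.05. Over all genes fitted, 2932 of 31319 and 1062 of 12584 were under that unadjusted p in these 2 settings. Samples came as 1 culture per line and condition as far as the labels tell, so no replicate spread enters these p-values. They set the mean change of the lines against a variance from the disagreement of the lines, moderated across all genes fitted.

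Genes of the centromeric nucleosome fell in both lines. CENPA, the histone H3 variant that marks the centromere, had 2.49 FPKM with OICR-9429 and 22.2 FPKM with DMSO in T24, and 1.81 with OICR-9429 and 16.5 with DMSO in UM-UC-3. HJURP, the chaperone that deposits CENP-A, was the most abundant of the 4 genes in DMSO by the mean of the lines and fell most in each line. It had 3.45 FPKM with OICR-9429 and 50.2 FPKM with DMSO in T24, and 1.39 with OICR-9429 and 30.1 with DMSO in UM-UC-3 (limma log2 fold change -3.85, SE 0.28, adjusted p = 0.0053). OIP5 and MIS18A encode partners in the Mis18 complex, which readies centromeres for new CENP-A after division. OIP5 stood at 1.35 FPKM with OICR-9429 and 16.0 FPKM with DMSO in T24, and at 1.08 with OICR-9429 and 10.9 with DMSO in UM-UC-3. MIS18A was the gene of this group whose lines differed most, with 1.72 FPKM with OICR-9429 and 22.8 FPKM with DMSO in T24, against 9.41 with OICR-9429 and 34.0 with DMSO in UM-UC-3. The treated level of MIS18A was thus 7.56% of the DMSO level in T24 and 27.7% in UM-UC-3. In limma all 4 genes of the group fell, MIS18A not with the variance trend left out (adjusted p = 0.057).

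All 11 members from the constitutive centromere-associated network, the inner kinetochore that sits on CENP-A chromatin throughout the cell cycle, were called lower in both lines. The median of their log2 fold changes was -2.50 in T24 cells and -2.20 in UM-UC-3 cells. CENPW, which folds with CENP-T like a histone pair, was the most abundant in DMSO and had the lowest mean log2 fold change of the lines. CENPK was lower in T24 (-4.24 on the log2 scale, against -4.05 for CENPW), and with a pseudocount of 0.1 CENPI was lower in UM-UC-3 (-4.10, against -3.77). CENPW had 2.14 FPKM with OICR-9429 and 43.2 FPKM with DMSO in T24, and 2.59 with OICR-9429 and 36.5 with DMSO in UM-UC-3 (limma log2 fold change -3.81, SE 0.29, adjusted p = 0.0053). CENPI had 0.899 FPKM with OICR-9429 and 17.2 FPKM with DMSO in T24, and 0.547 with OICR-9429 and 11.0 with DMSO in UM-UC-3. CENPK differed most between the lines, at 0.506 FPKM with OICR-9429 and 18.5 FPKM with DMSO in T24, and 0.699 with OICR-9429 and 7.02 with DMSO in UM-UC-3. Its treated level was 2.73% of DMSO in T24 and 9.96% in UM-UC-3.

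The treated levels are given here by subcomplex, and the differences between subcomplexes were not tested. In CENP-HIKM, the branch of CENPH, CENPI, CENPK and CENPM, the median treated level was 7.57% of the DMSO level in T24 and 8.72% in UM-UC-3, with CENPH the highest at 16.1% in T24 and 25.1% in UM-UC-3. In CENP-LN, whose products touch the CENP-A nucleosome directly, T24 had a median of 27.0% and UM-UC-3 one of 27.2%, and neither CENPL (adjusted p = 0.063) nor CENPN (adjusted p = 0.052) passed limma as reported. Both passed after either rescaling of the libraries and with an FPKM minimum of 5 (limma adjusted p of 0.022 to 0.039 for CENPL and 0.014 to 0.031 for CENPN), and CENPN passed under 5 of the 8 alternatives in all. CENP-OPQU had a median of 15.0% for T24 and 20.7% for UM-UC-3. The levels left overlapped those of CENP-HIKM in both lines and those of CENP-LN in UM-UC-3 only. Within CENP-OPQU, CENPU had 8.39% of its DMSO level left in T24 and 6.81% in UM-UC-3, CENPO 11.9% and 15.9%, and CENPQ 18.0% and 25.5%. Among the network genes in the set, CENPP had the smallest change and the lowest level in DMSO. It had 0.296 FPKM with OICR-9429 and 1.25 FPKM with DMSO in T24, and 0.336 with OICR-9429 and 1.18 with DMSO in UM-UC-3. With a pseudocount of 1 it was called in neither line, and its limma adjusted p was 0.13. The pseudocount of 0.5 understates the change of a gene this low.

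In the outer kinetochore, the 4 subunits of the NDC80 complex, KNL1 and ZWINT fell in both lines, and the 4 subunits of the MIS12 complex did not pass limma on the values as deposited. Of these 4, DSN1 passed after both rescalings of the libraries. The NDC80 complex is the coupler that binds the microtubule, with NDC80 and NUF2 at the microtubule end and SPC24 and SPC25 at the end that faces the chromosome. SPC25 had the deepest fall of all 49 members by the mean of the lines. It had 0.463 FPKM with OICR-9429 and 32.1 FPKM with DMSO in T24, and 0.0186 with OICR-9429 and 12.9 with DMSO in UM-UC-3. The treated UM-UC-3 value rests on 1 read, against 671 reads in DMSO, a ratio of 0.144% with an exact 95% interval of 0.00364% to 0.805% that covers counting error only. In limma its log2 fold change was -4.89 (SE 0.34, adjusted p = 0.0053).

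SPC24 was the other subunit close to nil in treated UM-UC-3 cells. It had 2.21 FPKM with OICR-9429 and 14.7 FPKM with DMSO in T24, but 0.0362 with OICR-9429 and 5.96 with DMSO in UM-UC-3. The last ratio, 3 reads against 477, was 0.608% with an exact 95% interval of 0.125% to 1.79%, while 15.0% of the DMSO level was left in T24. NDC80 had 1.22 FPKM with OICR-9429 and 28.8 FPKM with DMSO in T24, and 0.761 with OICR-9429 and 19.2 with DMSO in UM-UC-3. NUF2, its dimer partner, was left at 5.40% of the DMSO level in T24 and 3.29% in UM-UC-3. The spread of the 4 subunits' FPKM is given as a ratio. The highest subunit exceeded the lowest 4.77-fold with OICR-9429 and 2.18-fold with DMSO in T24, and 43.8-fold with OICR-9429 and 4.16-fold with DMSO in UM-UC-3. The 43.8-fold value rests on the single read of SPC25. This did not hold for every complex, and CENP-OPQU had a ratio of 7.38-fold with OICR-9429 and 15.7-fold with DMSO in T24, and 8.42-fold with OICR-9429 and 20.3-fold with DMSO in UM-UC-3.

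ZWINT, which binds KNL1 and helps bring checkpoint proteins to the kinetochore, was the most abundant outer kinetochore gene in DMSO. It had 2.37 FPKM with OICR-9429 and 87.9 FPKM with DMSO in T24, and 1.64 with OICR-9429 and 45.6 with DMSO in UM-UC-3 (limma log2 fold change -4.69, SE 0.28, adjusted p = 0.0053). KNL1, the scaffold that carries BUB1, BUBR1 and BUB3, had 5.12% of its DMSO level left in T24 and 6.19% in UM-UC-3.

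The MIS12 complex joins the inner kinetochore to NDC80 and KNL1, and none of its 4 genes was called lower in both lines on the values as deposited. MIS12 had 9.17 FPKM with OICR-9429 and 15.9 FPKM with DMSO in T24, and 10.4 with OICR-9429 and 10.5 with DMSO in UM-UC-3 (limma adjusted p = 0.50). DSN1 was the member of the whole set whose lines differed most. It was called lower in T24 only. There it had 3.47 FPKM with OICR-9429 and 25.5 FPKM with DMSO, while UM-UC-3 cells had 10.6 FPKM with OICR-9429 and 20.1 FPKM with DMSO. The log2 fold change was lower by 1.82 in T24 than in the other line, and this difference was not tested. Rescaling by median ratios put DSN1 at -1.02 on the log2 scale in UM-UC-3 and -2.57 in T24, a call in both lines, and its limma adjusted p was 0.028 with median ratios and 0.032 with a trimmed mean. NSL1 had 4.36 FPKM with OICR-9429 and 13.3 FPKM with DMSO in T24, where it was called lower, and 1.73 with OICR-9429 and 3.55 with DMSO in UM-UC-3, where the pseudocount kept it under the fold threshold. PMF1 was called in UM-UC-3 only, and with a pseudocount of 1 in neither line. It had 2.14 FPKM with OICR-9429 and 3.67 FPKM with DMSO in T24, and 1.31 with OICR-9429 and 3.14 with DMSO in UM-UC-3. The median treated level of the MIS12 complex was 45.1% of DMSO in T24 and 50.8% in UM-UC-3, against 4.82% and 1.95% for the NDC80 complex. No test of the difference between the complexes was made.

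The SKA complex of SKA1, SKA2 and SKA3, which keeps kinetochores attached to shrinking microtubules, was uneven as well. SKA1 had 1.03 FPKM with OICR-9429 and 27.6 FPKM with DMSO in T24, and 0.755 with OICR-9429 and 14.7 with DMSO in UM-UC-3. SKA3 had 1.19 FPKM with OICR-9429 and 17.6 FPKM with DMSO in T24, and 0.652 with OICR-9429 and 15.0 with DMSO in UM-UC-3. Both fell in limma, with adjusted p of 0.0070 and 0.0073. SKA2 was called lower in both lines but kept a larger part of its level, with 11.2 FPKM with OICR-9429 and 26.5 FPKM with DMSO in T24, and 9.40 with OICR-9429 and 26.7 with DMSO in UM-UC-3 (limma log2 fold change -1.34, SE 0.25, adjusted p = 0.051). It passed limma under 4 of 8 alternatives, with adjusted p as low as 0.028.

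Of the 8 genes of the corona and the spindle checkpoint, 6 fell in limma, and the rule called the same 6 in both lines. CDC20, the activator of the anaphase-promoting complex that the checkpoint holds in check, was the most abundant of all members in DMSO. It had 15.9 FPKM with OICR-9429 and 172 FPKM with DMSO in T24, and 18.2 with OICR-9429 and 238 with DMSO in UM-UC-3 (limma log2 fold change -3.53, SE 0.23, adjusted p = 0.0053). BUB1B, which encodes BUBR1 of the mitotic checkpoint complex, had the lowest mean log2 fold change of the lines in this group, though MAD2L1 was lower in T24. It had 1.45 FPKM with OICR-9429 and 29.1 FPKM with DMSO in T24, and 0.482 with OICR-9429 and 18.4 with DMSO in UM-UC-3. MAD2L1, the MAD2 that locks onto CDC20, fell less in UM-UC-3. It had 1.05 FPKM with OICR-9429 and 25.6 FPKM with DMSO in T24, and 1.87 with OICR-9429 and 15.9 with DMSO in UM-UC-3. On the log2 scale this was -4.07 in T24 and -2.79 in the other line.

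Neither BUB3 nor MAD1L1 passed limma. BUB3, the partner of BUBR1, had 12.6 FPKM with OICR-9429 and 25.5 FPKM with DMSO in T24, just under a change of 2-fold once the pseudocount was added. It was called lower in UM-UC-3, with 22.0 FPKM with OICR-9429 and 47.0 FPKM with DMSO (limma adjusted p = 0.076). MAD1L1, the MAD1 that brings MAD2 to unattached kinetochores, was called in neither line. It had 2.93 FPKM with OICR-9429 and 4.22 FPKM with DMSO in T24, and 2.42 with OICR-9429 and 2.11 with DMSO in UM-UC-3. It was the only member with a value above 0 in either line, and its limma adjusted p was 0.84. Of the corona proteins, CENPE, a motor that carries chromosomes along microtubules, was left at 7.50% of its DMSO level in T24 and 6.29% in UM-UC-3. CENPF, a large fibrous corona protein, was left at 9.06% in T24 and 6.23% in UM-UC-3. ZWILCH, a subunit of the RZZ complex that recruits dynein and the checkpoint, was left at 8.26% in T24 and 25.3% in UM-UC-3.

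Both shugoshins, which protect centromeric cohesin until anaphase, fell in limma. SGO2 had 1.10 FPKM with OICR-9429 and 12.6 FPKM with DMSO in T24, and 1.55 with OICR-9429 and 16.3 with DMSO in UM-UC-3. SGO1 had 0.552 FPKM with OICR-9429 and 4.96 FPKM with DMSO in T24, and 0.340 with OICR-9429 and 3.37 with DMSO in UM-UC-3. Their limma adjusted p were 0.0092 for SGO2 and 0.028 for SGO1.

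All 7 spindle genes were called lower in both lines and all but CKAP5 fell in limma. DLGAP5, or HURP, which stabilises kinetochore fibres, fell most. It had 1.78 FPKM with OICR-9429 and 43.5 FPKM with DMSO in T24, and 1.03 with OICR-9429 and 30.4 with DMSO in UM-UC-3 (limma log2 fold change -4.30, SE 0.29, adjusted p = 0.0053). HMMR, a hyaluronan receptor that also acts at spindle poles, had 1.38 FPKM with OICR-9429 and 25.7 FPKM with DMSO in T24, and 2.19 with OICR-9429 and 37.5 with DMSO in UM-UC-3. SPAG5, or astrin, which joins the kinetochore once it is attached, fell more in UM-UC-3. It had 3.45 FPKM with OICR-9429 and 24.2 FPKM with DMSO in T24, and 1.04 with OICR-9429 and 19.3 with DMSO in UM-UC-3. ASPM, a spindle pole protein whose loss causes microcephaly, was left at 6.41% of its DMSO level in T24 and 3.53% in UM-UC-3. NUSAP1, a bundler of microtubules, was left at 10.4% in T24 and 8.02% in UM-UC-3. CKAP2, another microtubule-associated protein, was left at 17.1% in T24 and 20.9% in UM-UC-3. CKAP5, the microtubule polymerase ch-TOG, which works in interphase as well, had the smallest change of the group. It had 28.8 FPKM with OICR-9429 and 58.4 FPKM with DMSO in T24, and 31.5 with OICR-9429 and 77.5 with DMSO in UM-UC-3 (limma adjusted p = 0.057). Its log2 fold change of -1.01 in T24 became -0.85 with median ratios and -0.89 with a trimmed mean, which ends that call. In limma CKAP5 passed with a pseudocount of 0.1, an FPKM minimum of 5 or the trimmed mean (adjusted p of 0.044 to 0.049). In treated cells it was the most abundant of the 49 genes in both lines, a place that CDC20 held with DMSO.

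The 4 cytokinesis genes fell in limma and met the 2-fold rule in each line. CEP55, which brings the abscission machinery to the midbody, was the most abundant in DMSO by the mean of the lines. It had 7.77 FPKM with OICR-9429 and 74.1 FPKM with DMSO in T24, and 5.39 with OICR-9429 and 62.6 with DMSO in UM-UC-3. ANLN encodes anillin, the scaffold of the contractile ring, and fell most. It had 2.01 FPKM with OICR-9429 and 36.0 FPKM with DMSO in T24, and 3.38 with OICR-9429 and 75.6 with DMSO in UM-UC-3 (limma log2 fold change -4.08, SE 0.27, adjusted p = 0.0053). PRC1, which crosslinks the microtubules of the spindle midzone, had 2.41 FPKM with OICR-9429 and 35.9 FPKM with DMSO in T24, and 1.29 with OICR-9429 and 21.0 with DMSO in UM-UC-3. ECT2, the exchange factor that switches on RHOA at the cell equator, changed least, with 11.4 FPKM with OICR-9429 and 58.8 FPKM with DMSO in T24, and 7.21 with OICR-9429 and 52.5 with DMSO in UM-UC-3 (limma log2 fold change -2.55, SE 0.25, adjusted p = 0.0080).

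**Figure D3:**
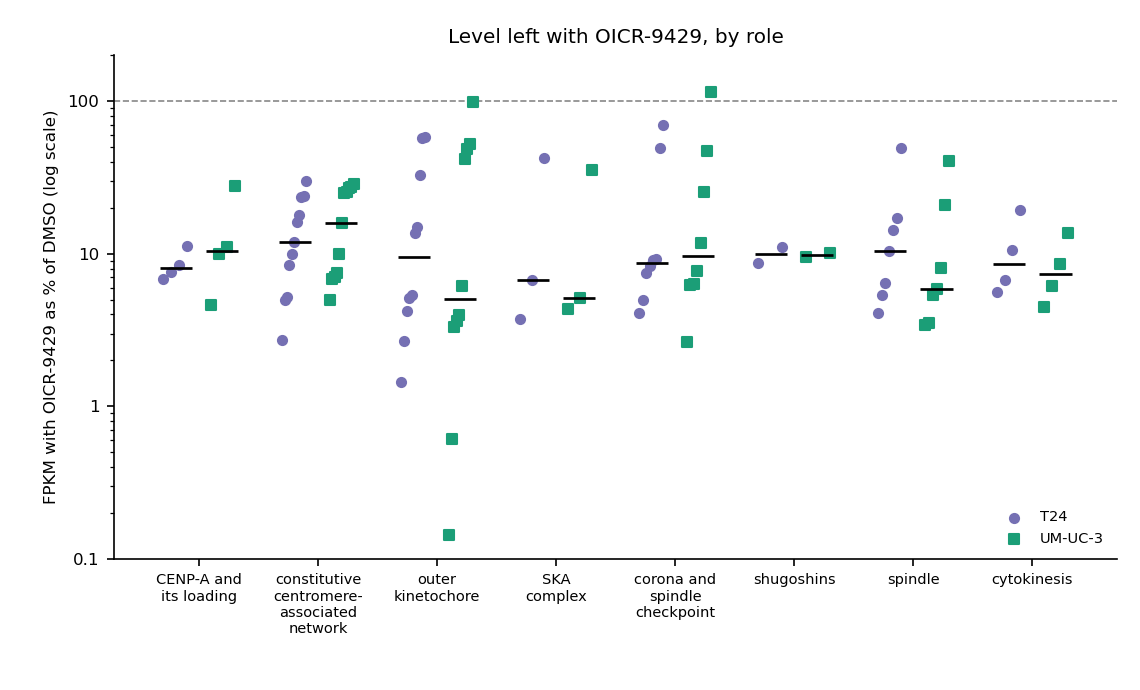
FPKM with OICR-9429 as a percentage of the DMSO level (log axis, dashed line at 100%) for each gene, by role, in T24 (circles) and UM-UC-3 (squares). Black bars are medians over the genes of a role, and no error is drawn because each level is 1 library. Most genes lie near or under 10%, and the genes above 40% are MIS12, DSN1, NSL1, PMF1, SKA2, BUB3, MAD1L1 and CKAP5.

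The size of the change was alike in the lines for most members. Across the 49 genes, log2 fold changes in T24 and those in UM-UC-3 correlated with Pearson's r of 0.87 and Spearman's rho of 0.83, a description over genes that share 4 libraries. The lines differed by under 0.5 on the log2 scale in 36 members and by 1 or more in 7, with a median absolute difference of 0.34. The log2 fold change was lower in T24 for 26 members and lower in UM-UC-3 for 23. The 7 genes were DSN1, CENPK, MIS18A, MAD2L1 and ZWILCH, with the lower value in T24, and SPC24 and SPAG5, with the lower value in UM-UC-3. They were singled out after their values were seen. With DMSO, 35 members were higher in T24 than in UM-UC-3 and 42 lay within 2-fold between the lines. Members with more RNA in DMSO tended to have lower log2 fold changes. For the log2 DMSO level against the log2 fold change, T24 gave a Pearson's r of -0.51 and UM-UC-3 one of -0.44 over the 49 genes, though both quantities hold the same DMSO value.

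**Figure D4:**
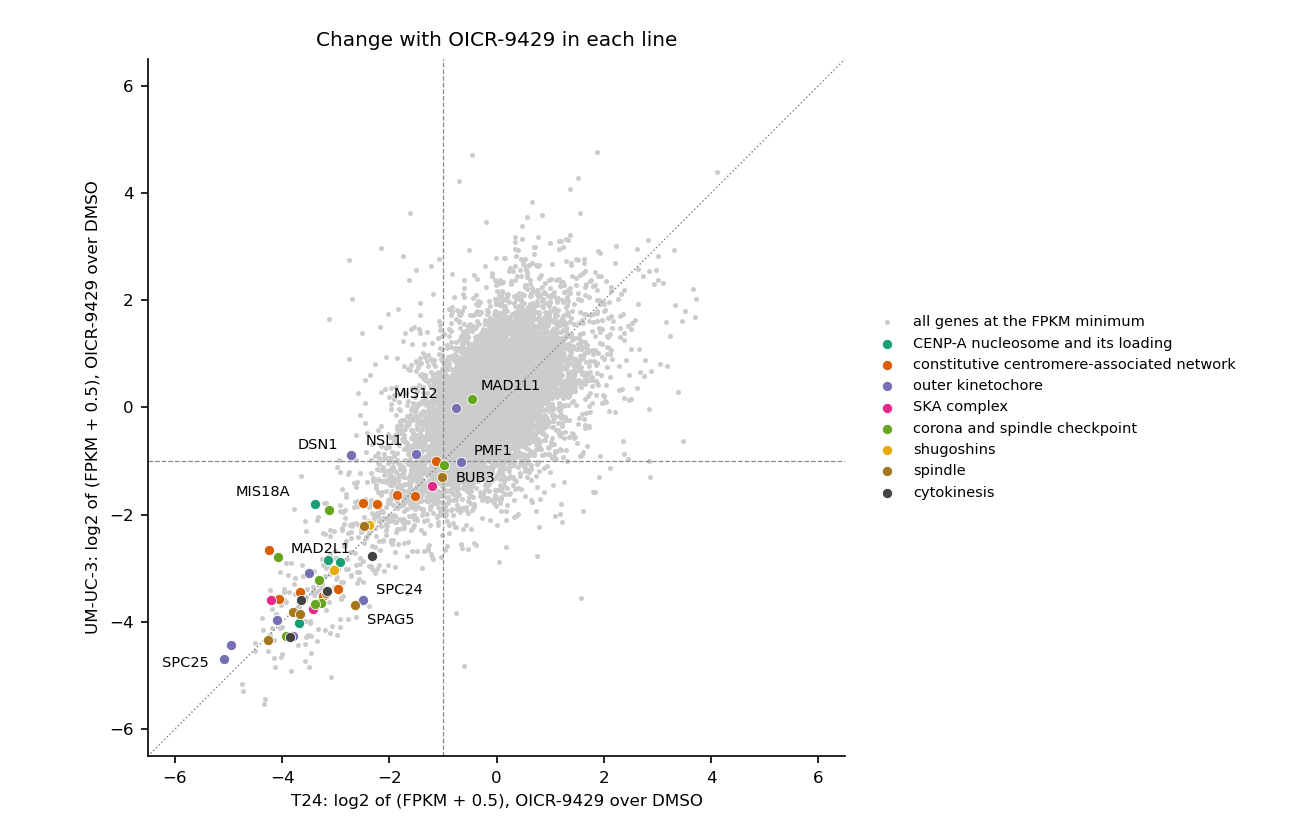
Log2 fold change of FPKM + 0.5, OICR-9429 over DMSO, in T24 (x axis) and UM-UC-3 (y axis) for each member, coloured by role, over all 11178 genes at the FPKM minimum in both lines (grey). Dashed lines mark a fall of 2-fold and the dotted line equal change. The 43 members called lower in both lines lie in the lower left, and the 6 others (DSN1, NSL1, MIS12, PMF1, BUB3, MAD1L1) lie outside it or at its edge.

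Other genes of the same structures, 76 in 4 lists, give the setting. These lists too were chosen with earlier results of these data known, and their difference from the members was not tested. The rule called 28 of them lower in T24, 23 lower in UM-UC-3 and 18 lower in both. In limma 15 of the 74 that could be fitted fell and none rose. Among other kinetochore and checkpoint genes, 4 of 15 fell in limma. The AAA+ ATPase TRIP13, which disassembles the mitotic checkpoint complex, had 2.41 FPKM with OICR-9429 and 47.3 FPKM with DMSO in T24, and 4.61 with OICR-9429 and 42.2 with DMSO in UM-UC-3. KNTC1, the ROD subunit of RZZ, changed by -3.26 on the log2 scale in T24 and -2.82 in UM-UC-3. CENPB, which binds centromeric satellite DNA, had 19.9 FPKM with OICR-9429 and 22.3 FPKM with DMSO in T24, and 50.6 with OICR-9429 and 55.8 with DMSO in UM-UC-3. The dynein regulator NDEL1 and the kinetochore protein gene BOD1 were called higher in UM-UC-3 only. On the log2 scale NDEL1 had 0.99 for T24 and 2.23 for UM-UC-3. In T24 it stood at 206% of its DMSO level, and the pseudocount kept it under the fold threshold. The value of BOD1 was 0.68 for T24 and 1.44 for UM-UC-3.

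Among other spindle assembly genes, 4 of 23 fell in limma (TPX2, CKAP2L, TACC3 and HAUS1). TPX2, which activates Aurora A on the spindle, was the most abundant in DMSO, with 10.3 FPKM with OICR-9429 and 139 FPKM with DMSO in T24, and 12.5 with OICR-9429 and 169 with DMSO in UM-UC-3. CKAP2L, a relative of CKAP2, changed by -4.19 in T24 and -3.76 in UM-UC-3 on the log2 scale. MAPRE1, the microtubule end-binding protein EB1, had 64.1 FPKM with OICR-9429 and 106 FPKM with DMSO in T24, and 49.9 with OICR-9429 and 102 with DMSO in UM-UC-3, and its limma adjusted p was 0.11. The median over this list was -1.03 in T24 cells and -0.77 in UM-UC-3 cells on the log2 scale.

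Of 16 other cytokinesis and abscission genes, DIAPH3, ARHGAP11A and RACGAP1 fell in limma. DIAPH3, a formin that builds actin filaments, changed by -3.75 on the log2 scale in T24 and by -3.19 in UM-UC-3. ARHGAP11A, a RHOA GTPase-activating protein, changed by -2.95 in T24 and by -3.02 in UM-UC-3. RHOA itself, the switch for the contractile ring and for much of the interphase cytoskeleton, had 194 FPKM with OICR-9429 and 247 FPKM with DMSO in T24, and 159 with OICR-9429 and 201 with DMSO in UM-UC-3. The myosin gene MYH9 had 123 FPKM with OICR-9429 and 253 FPKM with DMSO in T24, and 41.9 with OICR-9429 and 133 with DMSO in UM-UC-3 (limma adjusted p = 0.052). The ESCRT genes of the list, CHMP2A, CHMP4B, VPS4A, PDCD6IP and TSG101, were called in neither line.

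In the list of the anaphase-promoting complex and of anaphase, ESPL1, UBE2C, PTTG1 and FBXO5 fell in limma. ESPL1, the protease separase, changed by -3.57 in T24 and -4.42 in UM-UC-3 on the log2 scale. UBE2C, an E2 enzyme of the complex, had 5.12 FPKM with OICR-9429 and 43.4 FPKM with DMSO in T24, and 12.7 with OICR-9429 and 250 with DMSO in UM-UC-3. UBE2S, its partner E2, had 31.5 FPKM with OICR-9429 and 82.8 FPKM with DMSO in T24, and 87.1 with OICR-9429 and 130 with DMSO in UM-UC-3 (limma adjusted p = 0.12). No core subunit of the complex was called in either line.

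Reads could be shared between members and neighbouring genes. In GENCODE 29, 22 members share exon bases with another gene and 10 share at least 10% of theirs, among them NUSAP1 (62.2%), PRC1 (57.6%), OIP5 (38.0%, with its antisense RNA OIP5-AS1), CENPP (38.0%) and CENPO (27.0%), and whether counting used strand was not stated. Of the 27 members that share none, the rule called 25 in T24 and 24 in UM-UC-3. Both lines called 23 of them, and 21 fell in limma. Library totals worked back from the values were 28209432 to 29335051 reads. Of 13 urothelial markers, 11 were analysed, and their summed FPKM was 105 with OICR-9429 and 170 with DMSO in T24, and 36.7 with OICR-9429 and 109 with DMSO in UM-UC-3. KRT8 and KRT18 made up most of it. In both lines KRT8 was called lower and PPARG higher. KRT18 was called lower in UM-UC-3 only. KRT7 was called lower in T24 only and was under the FPKM minimum in UM-UC-3. PPARG had 6.93 FPKM with OICR-9429 and 3.12 FPKM with DMSO in T24, and 5.86 with OICR-9429 and 1.55 with DMSO in UM-UC-3. The uroplakin genes UPK1A, UPK1B and UPK2 and the basal keratin gene KRT5 were under an FPKM of 1 in all 4 libraries. So were GATA3, TP63 and KRT20. The leukocyte markers PTPRC and CD14 and the endothelial markers PECAM1, CDH5 and VWF were also under 1 in all 4. The part of any of these in the members' values was not tested.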

How the data were processed

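RNA of both lines after 48 h in OICR-9429 or DMSO was sequenced as paired reads. The authors deposited FPKM values for 31319 genes, 1 table per library. Tools listed in the submitters' processing notes were HTSeq 0.6.1, HISAT2 2.1.0 and bcl2fastq 2.19.1, with the build hg19, and the methods name HISAT2 for alignment and DEGseq for the comparison. The methods give n = 4 without saying of what. No column of values was left out. Multiplied by GENCODE 29 exon lengths and by a library total, the values gave whole reads in every library (tolerance 1e-06 of the reads) for 29029 genes (92.7%) and for 48 of the 49 members. Intervals are exact at 95% and cover counting error only.

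The members and gene lists were chosen with earlier results of these data known. Changes are log2 ratios of FPKM + 0.5. Within a line a rule of size was used (2-fold or more, with 1 FPKM or more in either library) with no test. Over both lines, limma 3.58.1 in R 4.3.3 (lmFit and eBayes with a trend, cell line and treatment as terms) was fitted to genes that reached 1 FPKM in 2 or more libraries, with Benjamini-Hochberg adjustment over all genes fitted. The cell line pairs each treated library with its DMSO library. The scripts were tested on simulated data. In each role the most abundant gene in DMSO, the pair with the lowest mean log2 fold change, the smallest change and the largest difference between lines were given in all 4 libraries, with every gene not called lower in both lines, and in each other list the most abundant and most changed pairs. RefSeq promoters (35116 windows, 49 of them for 43 members) came from GRCh38.p14, and where a gene had several windows any match counted. 5 septin genes, whose symbols read as dates, were matched by gene ID. Alternatives were pseudocounts, FPKM minimums, fold thresholds, 2 rescalings and other limma terms. Python 3.11.15, numpy 2.4.6, pandas 2.3.3, scipy 1.17.1 and matplotlib 3.10.9 were used.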

Additional observations from a re-analysis of the deposited data

Results flagged for a closer look

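MAD1L1 had a log2 fold change of -0.46 for T24 and 0.16 for UM-UC-3. T24 minus UM-UC-3 gives -0.62. It drew attention because the lines moved in opposite directions with OICR-9429. The difference was not tested, each line has 1 library per condition, and neither change reached 2-fold. The UM-UC-3 value stood beside a median of 0.09 over all genes in that line. It became 0.05 when the libraries were rescaled by median ratios and 0.08 with a trimmed mean.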

How the results depend on the processing

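The number of members that fell in limma, 38 as reported, was 0 with no FPKM minimum and 0 with no cell line term. With no minimum, all 31319 genes were fitted and none was called, and 45 members and 2932 genes had an unadjusted p under 0.05. With no cell line term, 43 members and 1062 of 12584 genes had an unadjusted p under 0.05. The cause was not tested. The number that fell was 38 to 43 with pseudocounts of 0.1 and 1, a minimum of 5, both rescalings and no variance trend. The number over all genes fitted moved as well. It was 500 of 12584 with a pseudocount of 0.1, 376 of 12584 with 1 and 427 of 7790 at the minimum of 5. It was 644 of 12570 with median ratios, 665 of 12586 with a trimmed mean and 323 of 12584 with no variance trend. Under some of these 6 settings CENPL, CENPN, SKA2, CKAP5 and DSN1 passed, while MIS18A did not with no variance trend (adjusted p = 0.057) and SGO1 was not fitted at the minimum of 5. NSL1, MIS12, PMF1, BUB3, CENPP and MAD1L1 passed under none of the 8. Over the 27 members that share no exon base with another gene, an alternative chosen after seeing the data, the counts were 25 lower in T24, 24 in UM-UC-3, 23 in both and 21 in limma, fewer because fewer genes were counted. Members called lower in both lines numbered 34 at a fold threshold of 4 and 41 to 47 under the other alternatives. The share of all genes, 6.32% of 11178, is given for the reported 2-fold rule only. These counts therefore have no share over all genes beside them. Rescaling moved the median of all genes to -0.01 (T24) and -0.03 (UM-UC-3) with median ratios and to -0.04 and 0.00 with a trimmed mean, and 49 members in T24 and 48 in UM-UC-3 stayed below 0 under both. No replicate could be left out, since each line and condition has 1 library, and a fit to 1 line has no residual degrees of freedom. The reported limma fit pairs the libraries by cell line, and no other pairing is given in the labels. Depth limits the lowest treated values, those of SPC25 and SPC24 in UM-UC-3.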
